A study of Mus musculus and Homo sapiens with 34 samples.

Results

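H358 and H1651 are established human lung adenocarcinoma cell lines, and their vehicle-treated libraries were compared to describe how the lines differed in identity before any drug was given. The comparison takes 4 of the 34 RNA sequencing libraries of the study, 2 per line, chosen by their titles as the control arms of the trametinib experiments. The study itself concerns lineage regulators in lung adenocarcinoma, in mouse tumour cultures and in these human lines. H358 had been grown in RPMI with serum and H1651 in Advanced DMEM F-12 with serum and HEPES, and both vehicle groups were collected at 48 h without trametinib or doxycycline. Each line came from its own medium and its own deposited table, so line, medium and experiment cannot be told apart in any difference given here. The labels do not say that replicates came from separate cultures, and p-values then measure only the spread between these libraries, which may be technical. A further 4 libraries of the same lines after 48 h in 20 nM trametinib, an inhibitor of MEK1 and MEK2, were used to see which differences appeared there as well. Another 2 libraries came from H1651 cells that carried a lentiviral HNF4α construct and were sampled at 7 days without doxycycline, the drug that switches the construct on.

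The vehicle libraries held 40017268 and 35069991 counts in H358 and 45284286 and 32807891 counts in H1651. Levels are CPM, counts scaled to 1000000 per library after TMM scaling of the 4 libraries, n = 2 per line, and are compared only between lines for the same gene. A log2 difference is H358 minus H1651, and a gene was called when its Benjamini-Hochberg adjusted p from edgeR's quasi-likelihood test was under 0.05. Where every library of a line had 0 counts, a fold is a lower bound against 3 counts per library, which amounts to 0.0671 to 0.0952 CPM depending on the library. Such bounds cover counting error only. Mitochondrial genes took 5.27% and 5.85% of the counts in H358 and 4.11% and 4.24% in H1651, and their part in the results was not tested. Between the replicates of a line, 21 tested genes in H358 and 224 in H1651 differed by more than 2-fold.

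As background, NKX2-1 is the transcription factor that sets lung epithelial identity, while HNF4A directs gastrointestinal and hepatic gene programmes that some lung adenocarcinomas take up. FOXA1 and FOXA2 open chromatin for both programmes. Epithelial cells are held together by cadherin junctions and keratin filaments, the ZEB and TWIST factors repress those genes, and HOX genes record position along the body axis.

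The lines differed at most measured genes. Of 19859 genes tested, 14138 were called, which is 71.2%, with 6864 higher in H358 (34.6%) and 7274 higher in H1651 (36.6%). A smaller class of 5328 genes (26.8%) was called with at least a 4-fold difference, 2584 of them higher in H358 (13%) and 2744 higher in H1651 (13.8%). Genes without counts in 1 line were more often without counts in H358: 161 genes stood at 1 CPM or more in H358 and at 0 counts in both H1651 libraries, and 462 stood the other way round. Among long non-coding RNA genes 41.4% of 3903 tested differed by at least 4-fold, against 23.5% of 14685 protein-coding genes. A gene could enter the test through the line where it was higher, which can raise the 4-fold share of a class with low counts. The classes were not compared at like levels. The shares over all genes tested are the background for every list that follows, and a list with a share of calls near them does not stand out. Members named as exceptions, or as not passing the test, were picked after their values were seen.

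**Figure D1:**
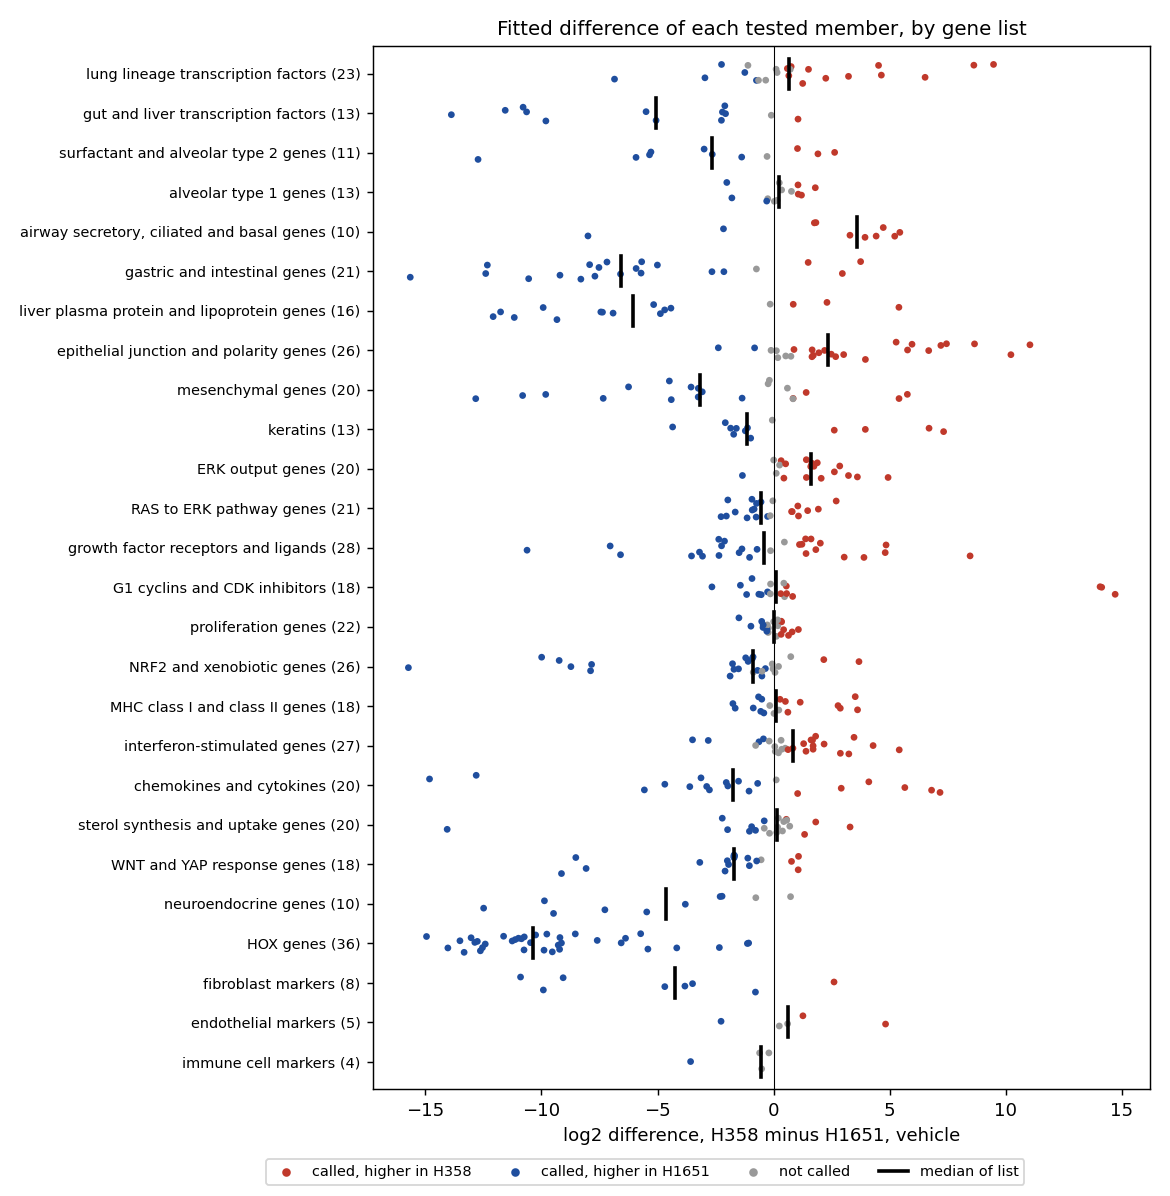
Fitted log2 difference (x axis, H358 minus H1651, vehicle) of every tested member of 26 gene lists, 1 point per gene, with the number tested in parentheses and a black bar at the list median. The medians of HOX genes, gut and liver transcription factors, liver plasma protein genes and mesenchymal genes lie left of 0 at -10.36, -5.06, -6.04 and -3.16, those of epithelial junction and airway genes lie right of it at 2.34 and 3.61, and that of proliferation genes is 0.03; apart from HOX genes, these lists have members on both sides. Points beyond about 5 on either side include genes at 0 counts in a line, whose fitted value depends on the prior count.

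Lung lineage transcription factors were higher in H358 more often than in H1651, and NKX2-1 itself was present in both lines. Of 23 tested factors, 12 were higher in H358, 5 were higher in H1651 and 6 were not called, with a median log2 difference of 0.65 against -0.02 over all genes. The share called was 73.9%, near the 71.2% over all genes, so the list does not stand out by its calls. NKX2-1 stood at 110.3 and 123 CPM in H358 and 55.8 and 26.3 CPM in H1651. Both H358 libraries lay above both H1651 libraries, and the log2 difference was 1.5 ± 0.3 (SE, adjusted p 0.00256). FOXA1 stood at 36.2 and 49.3 CPM in H358 and 131 and 70.5 CPM in H1651, a log2 difference of -1.24 ± 0.28 (SE, adjusted p 0.00477), so this pioneer factor was higher in H1651. FOXA2, its close relative, went the other way with 77.8 and 77.1 CPM in H358 and 3.89 and 2.19 CPM in H1651, a log2 difference of 4.64 ± 0.24 (SE, adjusted p 2.99e-06).

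TP63, GRHL2 and SOX2, factors of airway and stratified epithelium, were far apart in favour of H358, and CEBPA was far apart the other way. SOX2, which marks conducting airway, stood at 47.2 and 48.8 CPM in H358 and 0.671 and 0.317 CPM in H1651, and the groups were far apart (log2 difference 6.52 ± 0.25 (SE, adjusted p 8.88e-07)). TP63, the regulator of basal cells, stood at 79.7 and 93.8 CPM in H358 and 0.0448 and 0.222 CPM in H1651. GRHL2, which maintains epithelial cell contacts, stood at 131 and 133 CPM in H358 and 0.201 and 0.507 CPM in H1651. Both genes were close to silent in H1651, with log2 differences of 9.47 ± 0.32 (SE, adjusted p 5.38e-07) for TP63 and 8.62 ± 0.25 (SE, adjusted p 3.01e-07) for GRHL2. CEBPA, a factor of alveolar type 2 cells that is also central in liver, showed the opposite pattern with 0.17 and 0.473 CPM in H358 and 36.4 and 36.7 CPM in H1651 and a log2 difference of -6.85 ± 0.3 (SE, adjusted p 1.58e-06). ELF3, an epithelial ETS factor, did not pass the test (119 against 108 CPM, adjusted p 0.451).

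Gut and liver transcription factors were higher in H1651 almost throughout. Of 13 tested members, 11 were higher in H1651, 1 was higher in H358 and 1 was not called, and the median log2 difference was -5.06. HNF4A had 0 counts in both H358 libraries and stood at 59.3 and 38.9 CPM in H1651, at least 628-fold higher (adjusted p 3.37e-06). Its level in both H1651 libraries was clear of H358.

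CDX2, the intestinal homeobox factor, had 0 counts in H358 and 11.4 and 8.18 CPM in H1651, at least 125-fold higher. GATA4, which acts in foregut endoderm, had 0 counts in H358 and 5.01 and 5.36 CPM in H1651, at least 66.4-fold higher. HNF4G, a paralog of HNF4A, was the family member that H358 did express: it stood at 8.49 and 8.08 CPM in H358 and 41.1 and 28.4 CPM in H1651, a log2 difference of -2.07 ± 0.19 (SE, adjusted p 5.36e-05). The exception in direction was ONECUT2, a hepatic and neural factor, at 4.34 against 2.08 CPM (log2 difference 1.05 ± 0.31 (SE, adjusted p 0.0174)), and NR5A2 did not pass the test (3.9 against 4.15 CPM, adjusted p 0.801). CDX1 was not analysed here.

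**Figure D2:**
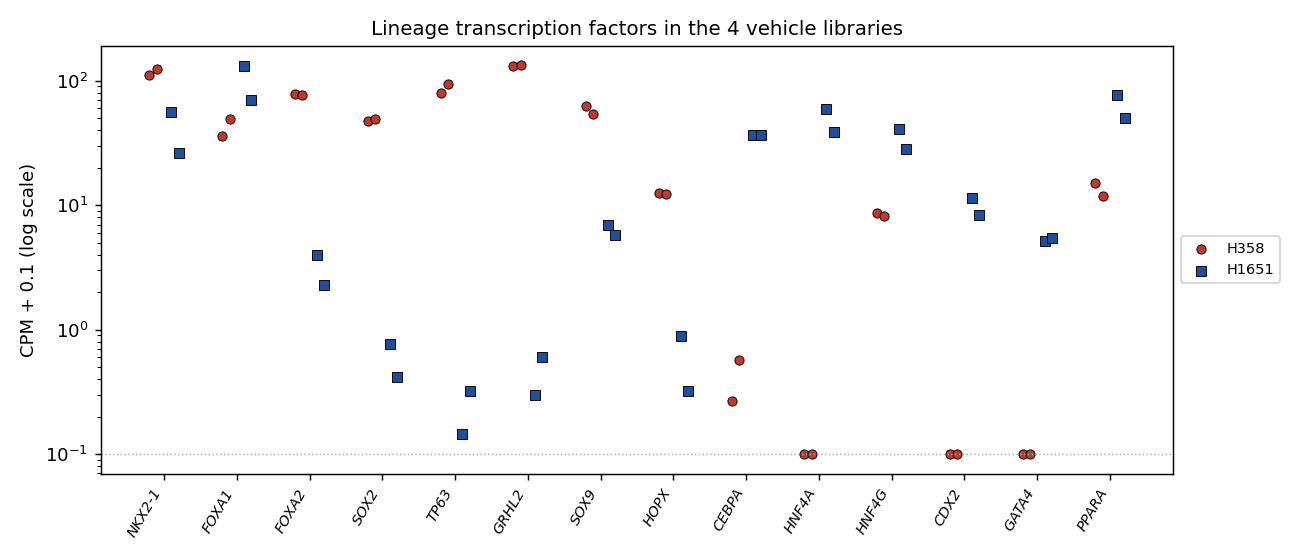
Level of 14 lineage transcription factors in each of the 4 vehicle libraries, as CPM + 0.1 on a log axis, with circles for H358 and squares for H1651; the dotted line marks 0 CPM. HNF4A, CDX2 and GATA4 sit on the dotted line in H358, GRHL2, TP63 and SOX2 lie below 1 CPM in H1651, and NKX2-1 is above 20 CPM in all 4 libraries.

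Gene lists of gut and liver leaned to H1651 as their transcription factors did. In the gastric and intestinal list 17 of 21 tested members were higher in H1651, 3 were higher in H358 and 1 was not called, with a median log2 difference of -6.59, or -4.59 with genes at 0 counts placed at their bound. MUC13, a transmembrane mucin of the gut, stood at 0.121 and 0.111 CPM in H358 and 681 and 552 CPM in H1651, a log2 difference of -12.33 ± 0.24 (SE, adjusted p 1.52e-07). CDH17, the intestinal cadherin, had 0 counts in H358 and 222 and 112 CPM in H1651, at least 2139-fold higher. Those genes separated the lines completely, and VIL1, which bundles actin in the brush border, did so at a lower level (0.0728 and 0.0836 CPM in H358 and 4.32 and 4.0 CPM in H1651).

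Further members with 0 counts in H358 were TFF1, a gastric trefoil peptide, at 5.86 and 3.84 CPM in H1651, and USH1C, a brush border scaffold, at 22.1 and 13.1 CPM. TSPAN8, a tetraspanin of gut epithelium chosen after its values were seen, stood at 1.56 against 80.8 CPM in H358 and H1651. The members that were higher in H358 were the gel-forming mucin MUC5AC (2.64 against 0.934 CPM), the adhesion protein CEACAM5 (2.11 against 0.254 CPM) and the intestinal surface antigen GPA33 (2.31 against 0.164 CPM), all at low levels. AGR2, a disulfide isomerase of mucus-secreting cells, was abundant in both lines and higher in H1651 (152 against 672 CPM, log2 difference -2.14 ± 0.28 (SE, adjusted p 3.16e-04)).

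Liver plasma protein and lipoprotein genes showed a like count, with 12 of 16 tested members higher in H1651, 3 higher in H358 and 1 not called, at a median log2 difference of -6.04 (-4.8 with genes at their bound). The fibrinogen chain genes FGA and FGB had 0 counts in H358 and stood at 4.88 and 1.36 CPM and 11.9 and 3.04 CPM in H1651. AMBP, the precursor of bikunin, had 0 counts in H358 and 12.5 and 10.1 CPM in H1651, at least 144-fold higher, and coagulation factor X (F10) had 0 counts in H358 and 14.8 and 13.5 CPM in H1651. These separate the lines, but in vehicle the defining liver gene does not: ALB, serum albumin, stood at 0.218 and 0.0836 CPM in H358 and 0.559 and 0.0952 CPM in H1651 and was too low in both lines to be tested. ALB was called higher in H1651, at low levels, under trametinib (log2 difference -3.11, edgeR adjusted p 0.00831). It was also called so with the H1651 libraries of the doxycycline experiment (-2.24, adjusted p 0.00624). SERPINA1, the protease inhibitor alpha-1-antitrypsin, was near 0 in both lines in vehicle (0.243 and 0.251 CPM in H358 and 0.0224 and 0 CPM in H1651). Coagulation factor V (F5) was higher in H358 (15.8 against 0.348 CPM, log2 difference 5.4 ± 0.39 (SE, adjusted p 1.37e-05)), and so was MTTP, which loads lipoproteins (0.914 against 0.18 CPM).

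Neither line showed the surfactant genes of mature alveolar type 2 cells. SFTPB stood at 0 and 0 CPM in H358 and 0.604 and 0.127 CPM in H1651 and was not tested, SFTPA1, SFTPA2 and SFTPD stayed below 1 CPM in every library, and SFTPC was not analysed here. NAPSA, the aspartic protease used to recognise lung adenocarcinoma, stood at 1.53 and 1.53 CPM in H358 and 0.582 and 0.19 CPM in H1651, which is low in both although the test called it higher in H358 (log2 difference 1.91 ± 0.46 (SE, adjusted p 0.00679)). Of the 11 alveolar type 2 members tested, 7 were higher in H1651, 3 were higher in H358 and 1 was not called. ABCA3, the lipid pump of lamellar bodies, stood at 4.97 and 4.87 CPM in H358 and 48.5 and 29.8 CPM in H1651, a log2 difference of -2.99 ± 0.24 (SE, adjusted p 2.45e-05). The lamellar body membrane protein LAMP3 was higher in H1651 too (2.91 against 18.1 CPM, log2 difference -2.64 ± 0.23 (SE, adjusted p 3.83e-05)), whereas SFTA3, transcribed next to NKX2-1, was higher in H358 (24.5 and 32.7 CPM in H358 and 6.45 and 2.63 CPM in H1651, log2 difference 2.63 ± 0.36 (SE, adjusted p 3.95e-04)). Of the markers of lung adenocarcinoma epithelium, NKX2-1, CDH1, KRT7 and KRT8 were thus present in both lines, SFTPB and NAPSA were near absent in both, and EPCAM was near absent in H1651.

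Alveolar type 1 genes gave no clear lean, with 4 of 13 tested members higher in H358, 3 higher in H1651 and 6 not called. CAV1, the main protein of caveolae, stood at 371 and 375 CPM in H358 and 176 and 182 CPM in H1651 (log2 difference 1.06 ± 0.1 (SE, adjusted p 4.70e-05)), and S100A6 was higher in H358 as well (904 against 260.5 CPM). COL4A3 and COL4A4, which build the alveolar basement membrane, were higher in H1651 (COL4A3 at 2.26 and 1.59 CPM in H358 and 9.58 and 3.74 CPM in H1651, COL4A4 at 5.34 and 5.4 CPM in H358 and 29 and 14.4 CPM in H1651). AGER, the receptor that marks type 1 cells, was low in both lines (3.25 and 1.39 CPM in H358 and 1.23 and 1.52 CPM in H1651) and did not pass the test, although it was called higher in H358 without H358 replicate 2 (1.25, adjusted p 0.0188) and without H1651 replicate 2 (0.91, adjusted p 0.0215); the log2 difference was 0.03 without H358 replicate 1.

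Airway genes leaned to H358, where 8 of 10 tested members were higher, with 2 higher in H1651. MUC5B, the main mucin of the small airway, stood at 84.2 and 83 CPM in H358 and 2.24 and 1.55 CPM in H1651, a log2 difference of 5.44 ± 0.18 (SE, adjusted p 4.96e-07). The membrane mucin MUC4 stood at 11.3 and 9.08 CPM in H358 and 0.358 and 0.159 CPM in H1651, and KRT15, a keratin of basal cells, at 19.5 and 13.9 CPM in H358 and 0.962 and 1.24 CPM in H1651. All of these separated the lines. The exceptions were CYP2B6, a cytochrome P450, with 0 counts in H358 and 0.806 and 0.857 CPM in H1651, at least 10.6-fold higher, and RSPH1, a radial spoke gene of motile cilia, at 0.461 and 0.418 CPM in H358 and 2.28 and 1.65 CPM in H1651 (log2 difference -2.16 ± 0.34 (SE, adjusted p 8.22e-04)). KRT5, the standard basal keratin, stood below 1 CPM in every library, so the high TP63 level in H358 was not accompanied by KRT5. The secretory gene SCGB3A2 was likewise near 0 in both lines (0 and 0.0278 CPM in H358 and 0.0671 and 0.0317 CPM in H1651).

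Epithelial junction genes were higher in H358 and mesenchymal genes higher in H1651. Of 26 junction and polarity genes tested, 19 were higher in H358, 2 were higher in H1651 and 5 were not called, at a median log2 difference of 2.34. EPCAM, an adhesion molecule of nearly all epithelia, stood at 709 and 687 CPM in H358 and 2.1 and 1.27 CPM in H1651, a log2 difference of 8.65 ± 0.22 (SE, adjusted p 2.41e-07). CDH1, which encodes E-cadherin, stood at 404 and 434 CPM in H358 and 67.8 and 35.4 CPM in H1651, a log2 difference of 3.02 ± 0.28 (SE, adjusted p 4.54e-05). EPCAM was therefore close to absent in H1651, while CDH1 was lower but present.

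RAB25, a small GTPase of apical recycling, stood at 113 and 121 CPM in H358 and 0.0895 and 0 CPM in H1651. ST14, the membrane serine protease matriptase, stood at 264 and 276 CPM in H358 and 0.201 and 0.254 CPM in H1651. ESRP1, the splicing factor that sets epithelial isoforms, stood at 325 and 334 CPM in H358 and 2.06 and 2.44 CPM in H1651, whereas its paralog ESRP2 did not pass the test (51.2 against 45 CPM, adjusted p 0.504). OVOL2, a repressor of mesenchymal genes, stood at 15.4 and 17.7 CPM in H358 and 0.0895 and 0.0952 CPM in H1651. Of the genes just named other than ESRP2, none reached 3 CPM in an H1651 library. The 2 members of this list that were higher in H1651 were the tight junction gene CLDN1 (15.7 against 81.5 CPM) and the desmosomal cadherin DSG2 (284 against 502 CPM). The plakoglobin gene JUP was, with ESRP2, among the 5 members not called (313 against 338 CPM, adjusted p 0.404).

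In the mesenchymal list 12 of 20 tested members were higher in H1651, 4 were higher in H358 and 4 were not called, at a median log2 difference of -3.16. VIM, the intermediate filament vimentin, stood at 227 and 189.6 CPM in H358 and 1534 and 1975 CPM in H1651, a log2 difference of -3.07 ± 0.17 (SE, adjusted p 3.94e-06). ZEB1, a repressor of E-cadherin, stood at 3.64 and 1.64 CPM in H358 and 55.9 and 64.4 CPM in H1651, a log2 difference of -4.49 ± 0.31 (SE, adjusted p 1.15e-05). TWIST1, a bHLH factor of mesoderm, had 0 counts in H358 and 18.8 and 28.6 CPM in H1651, at least 304-fold higher, and TWIST2 was at least 75.2-fold higher. CDH2, which encodes N-cadherin, was present in both and higher in H1651 (38.7 and 36.3 CPM in H358 and 343 and 369 CPM in H1651).

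The list did not move as a block. SNAI1 (10.4 against 6.98 CPM, adjusted p 0.125) and FN1, fibronectin (407 against 462 CPM, adjusted p 0.297), did not pass the test, and tenascin C (TNC) was higher in H358 (852 against 15.8 CPM, log2 difference 5.76 ± 0.18 (SE, adjusted p 3.48e-07)), as was CDH11 (46.1 against 1.11 CPM). Of 8 tested fibroblast markers, 7 were higher in H1651 and 1 was higher in H358, and their summed level was 51.4 and 41.3 CPM in H358 and 451 and 569.6 CPM in H1651. COL3A1, a fibrillar collagen, made up most of the H1651 sum (0.485 and 0.585 CPM in H358 and 268 and 305 CPM in H1651), DCN and THY1 had 0 counts in H358 and 3.98 and 8.56 CPM and 2.71 and 3.62 CPM in H1651, and COL1A2, a defining fibroblast gene, stayed below 1 CPM in every library. The summed endothelial markers came to 13.1 and 14.6 CPM in H358 and 3.07 and 4.79 CPM in H1651, and the immune markers to 2.16 and 1.92 CPM and 4.01 and 4.92 CPM. The part of other cells in the mesenchymal difference was not tested, and in bulk RNA more cells of a type and more RNA per cell cannot be told apart.

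Keratins split between the lines. Of 13 tested, 4 were higher in H358 and 8 in H1651. KRT19 stood at 1148 and 1045 CPM in H358 and 7.14 and 6.54 CPM in H1651, a log2 difference of 7.32 ± 0.15 (SE, adjusted p 1.52e-07), and KRT7, the keratin of ductal and lung epithelium, at 929.6 and 952 CPM in H358 and 27.2 and 95 CPM in H1651. KRT8, a keratin of simple epithelium, was high in both lines and higher in H1651 (1801 and 1786 CPM in H358 and 4438 and 3909 CPM in H1651, log2 difference -1.22 ± 0.12 (SE, adjusted p 7.83e-05)). KRT18, which pairs with KRT8, followed it (1074 against 2130 CPM, log2 difference -0.99 ± 0.12 (SE, adjusted p 1.78e-04)). KRT8 and KRT18 thus remained abundant in H1651 while KRT19 and KRT7 were lower. The hair keratin KRT81 was higher in H1651 (25.8 and 13.8 CPM in H358 and 165 and 646 CPM in H1651), though KRT81 and KRT86 are near-identical and the split of reads between them is uncertain.

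**Figure D3:**
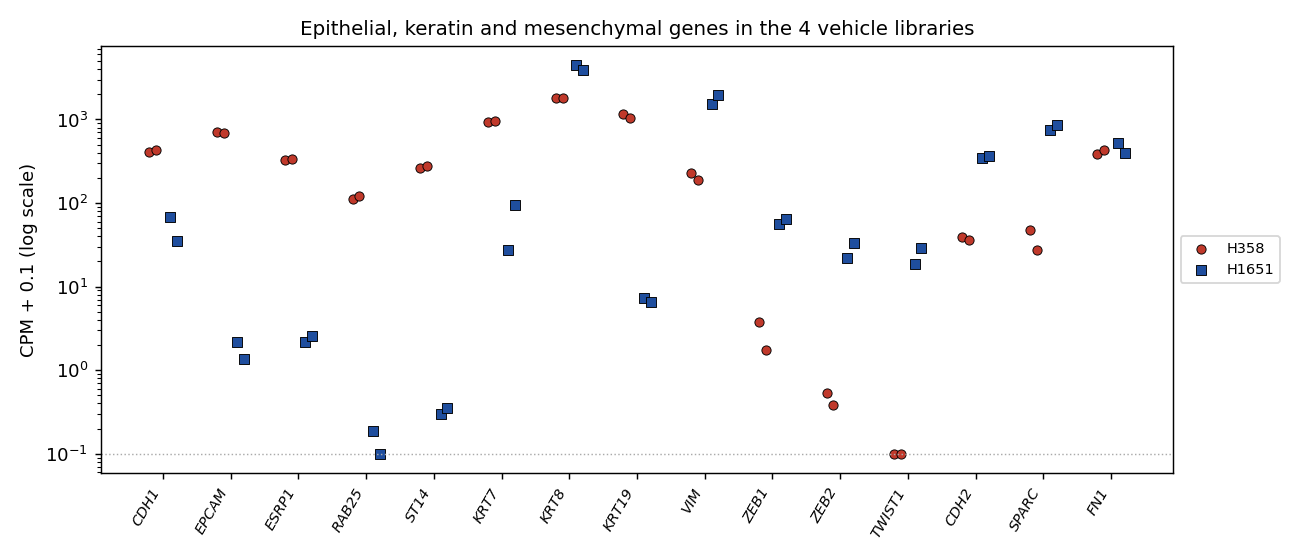
Level of 15 epithelial, keratin and mesenchymal genes in each of the 4 vehicle libraries, as CPM + 0.1 on a log axis, with circles for H358 and squares for H1651. EPCAM, ESRP1, RAB25, ST14 and KRT19 are lower in both H1651 libraries, KRT8 is above 1000 CPM in all 4, FN1 overlaps between the lines, and TWIST1 sits at 0 CPM in H358.

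HOX genes showed the most one-sided result of the lists. All 36 tested HOX genes were higher in H1651, 34 of them by at least 4-fold, and 23 had 0 counts in both H358 libraries. The background for a call in that direction was 36.6%, and for a 4-fold call 13.8%. The median log2 difference was -10.36, or -6.47 with genes at 0 counts placed at their bound. HOXB1, HOXC5 and HOXD12 were not analysed here. HOX genes specify position along the body axis, with low paralog numbers anterior and high ones posterior.

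Summed over the HOXA cluster, H1651 had 152.4 and 125.4 CPM and H358 had 4.03 and 4.99 CPM. The HOXB cluster summed to 208.8 and 165.1 CPM in H1651 and to 0.218 and 0.195 CPM in H358. The HOXC cluster summed to 245.4 and 278.7 CPM in H1651 and to 0.0243 and 0.0557 CPM in H358. The HOXD cluster was the lowest in H1651, at 29.9 and 30 CPM, against 0.97 and 0.641 CPM in H358. All 4 clusters therefore separated the lines. The residual HOX signal of H358 came from few genes: HOXA5 stood at 1.67 and 2.37 CPM in H358 and 12 and 8.28 CPM in H1651, and HOXA3, HOXA6 and HOXD1 at 0.988, 1.24 and 0.805 CPM in H358.

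Posterior members were among those expressed in H1651. HOXC13 had 0 counts in H358 and 81.7 and 124 CPM in H1651, at least 1319-fold higher. HOXC12 had 0 counts in H358 and 55.8 and 53.1 CPM in H1651, at least 696-fold higher. HOXB13, a posterior gene known from prostate and distal gut, had 0 counts in H358 and 37.9 and 29.1 CPM in H1651, at least 428-fold higher. Anterior and middle members such as HOXB6 (43.2 and 32.8 CPM in H1651, 0 counts in H358) were expressed as well, so no single end of the clusters stood out by presence alone. Several HOX genes overlap antisense transcripts, and whether the counting used strand is not given in the sources used here.

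**Figure D4:**
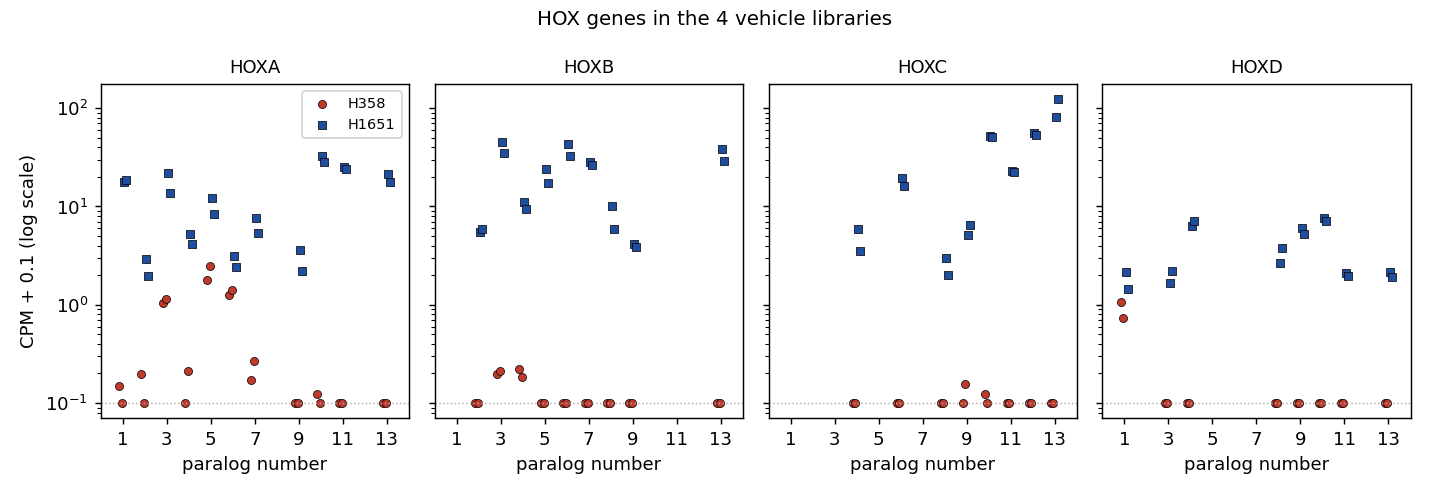
Level of the HOX genes in each of the 4 vehicle libraries, by cluster (panels) and paralog number (x axis), as CPM + 0.1 on a log axis; circles are H358, squares are H1651 and the dotted line marks 0 CPM. Every H1651 value lies above the H358 values of the same gene, and most H358 points sit at 0 CPM.

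The RAS to ERK pathway carries growth factor signals from receptors through RAS, RAF and MEK to ERK, which switches on early genes and their own feedback inhibitors. Among its components 7 of 21 tested genes were higher in H358, 12 were higher in H1651 and 2 were not called. RASA1, a GTPase-activating protein that turns RAS off, was higher in H358 (227 against 35 CPM, log2 difference 2.69 ± 0.12 (SE, adjusted p 1.51e-06)), while the scaffold genes SHOC2 (20.8 against 99.7 CPM) and KSR1 (22.1 against 86.9 CPM) were higher in H1651. NRAS did not pass the test (112 against 115 CPM, adjusted p 0.78).

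ERK output genes leaned to H358 more than the pathway components. Of 20 tested, 16 were higher in H358, 1 was higher in H1651 and 3 were not called, and the median log2 difference was 1.61. DUSP6, a phosphatase that ERK induces against itself, stood at 148 and 165 CPM in H358 and 50.7 and 52.8 CPM in H1651, a log2 difference of 1.6 ± 0.11 (SE, adjusted p 1.01e-05). PHLDA1 stood at 574 and 492 CPM in H358 and 41.6 and 72.8 CPM in H1651 and the AP-1 subunit gene FOSL1 at 109 and 90.7 CPM in H358 and 8.26 and 19.8 CPM in H1651. All of these separated the lines.

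ETV4, an ETS factor downstream of ERK, did not pass the test (40.8 and 37.7 CPM in H358 and 21.1 and 44.9 CPM in H1651, log2 difference 0.26 ± 0.3 (SE, adjusted p 0.46)) and its groups overlapped. Its log2 difference was 0.89 without H1651 replicate 2 and -0.21 without H1651 replicate 1, so its sign depended on the library left out. ETV4 was called with the H1651 libraries of the doxycycline experiment (0.69, adjusted p 0.00197). SPRY4, a feedback inhibitor of receptor signalling, stood at 30.3 and 32.9 CPM in H358 and 5.37 and 12 CPM in H1651 and was called (log2 difference 1.88 ± 0.32 (SE, adjusted p 0.0012)). The early gene EGR1 was level between the lines (34.8 against 34.8 CPM, adjusted p 0.992), and the stress-responsive MAFF was the one member higher in H1651 (10.9 against 27.6 CPM).

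Receptors and ligands split between the lines, with 12 of 28 tested genes higher in H358, 14 higher in H1651 and 2 not called. The EGFR ligand amphiregulin (AREG) stood at 373 and 304 CPM in H358 and 0.985 and 0.92 CPM in H1651, a log2 difference of 8.46 ± 0.19 (SE, adjusted p 1.68e-07), and TGFA, a second EGFR ligand, at 159 and 152 CPM in H358 and 6.09 and 4.66 CPM in H1651. EGFR itself was higher in H1651 (91.2 and 83.5 CPM in H358 and 236 and 214 CPM in H1651, log2 difference -1.36 ± 0.11 (SE, adjusted p 2.32e-05)). So the ligands were higher in H358 and the receptor in H1651. ERBB2 (156 against 60.1 CPM) and MET (422 against 195 CPM) were higher in H358. The hepatocyte growth factor gene HGF, which encodes the ligand of MET, had 0 counts in H358 and 2.13 and 8.22 CPM in H1651, and NRG4 stood at 0.0624 against 6.56 CPM. The receptor genes FGFR1, FGFR2, FGFR3 and FGFR4 were all higher in H1651, with log2 differences of -2.12, -2.36, -1.04 and -2.35; they were looked at as a family after the values were seen.

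Among G1 regulators the lines differed by the absence of 3 genes in H1651. CDKN2A, which encodes p16 and p14ARF, stood at 82.9 and 91.8 CPM in H358 and had 0 counts in H1651, at least 1077-fold higher. CDKN2B, which encodes p15, stood at 65 and 51.9 CPM in H358 and had 0 counts in H1651, at least 720.4-fold higher. MTAP, an enzyme of methionine salvage, stood at 56.3 and 55 CPM in H358 and had 0 counts in H1651, at least 685-fold higher. These genes are neighbours in the human genome, and no DNA was measured in these libraries. With CDKN2A, CDKN2B and MTAP counted in, 7 of 18 tested G1 genes were higher in each line and 4 were not called. Cyclin D3 (CCND3) was the furthest apart of those higher in H1651 (34.4 and 36.6 CPM in H358 and 190.5 and 258 CPM in H1651, log2 difference -2.66 ± 0.16 (SE, adjusted p 5.95e-06)), and RB1 was called with a small difference (60.6 and 64.4 CPM in H358 and 75.8 and 74 CPM in H1651, log2 difference -0.26 ± 0.1 (SE, adjusted p 0.0475)) that passed the test in only 3 of 13 alternatives (adjusted p up to 0.244).

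STK11, which encodes the kinase LKB1 and was chosen after its values were seen, stood at 70.8 and 72.4 CPM in H358 and 1.59 and 1.81 CPM in H1651, a log2 difference of 5.4 ± 0.15 (SE, adjusted p 2.41e-07). CDKN1A, the p21 gene, was higher in H358 (80.1 against 45 CPM, log2 difference 0.83 ± 0.11 (SE, adjusted p 2.89e-04)), as was the stress cytokine GDF15 (48.6 against 5.73 CPM), whereas ZMAT3 (10.9 against 77 CPM) and BTG2 (2.13 against 9.71 CPM) were higher in H1651. MDM2 did not pass the test (59.7 against 65.3 CPM, adjusted p 0.281).

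Proliferation genes were the most alike of the lists in size of difference. Of 22 tested, 7 were higher in H358, 7 were higher in H1651 and 8 were not called, no member reached a called 4-fold difference, and the median absolute log2 difference was 0.33 against 0.97 over all genes. MKI67, a marker of cycling cells, stood at 326 and 391 CPM in H358 and 274 and 257 CPM in H1651, a log2 difference of 0.43 ± 0.12 (SE, adjusted p 0.0129) that was not called without H358 replicate 2 (adjusted p 0.112) or with a spread shared by 8 libraries (adjusted p 0.135). MCM4, a subunit of the replicative helicase, was higher in H358 (462 against 220.5 CPM), and TYMS, thymidylate synthase, was higher in H1651 (99.8 against 281 CPM).

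Detoxification genes leaned to H1651. Of 26 tested genes of the NRF2 and xenobiotic list, 17 were higher in H1651, 2 were higher in H358 and 7 were not called, at a median log2 difference of -0.9. In this list 73.1% were called, near the 71.2% over all genes. ALDH1A1, a retinaldehyde dehydrogenase, had 1 count in H358 and stood at 981 and 782 CPM in H1651, a ratio of 69320 times (95% interval from the counts, 12440 to 2738000). The aldo-keto reductase genes AKR1C1 and AKR1C2 stood at 1.65 and 1.48 CPM in H358 and 739 and 595 CPM in H1651 and at 0.509 and 0.613 CPM in H358 and 777 and 366 CPM in H1651. AKR1C1, AKR1C2 and AKR1C3 are near-identical copies, so the split between them is uncertain, but each was low in H358.

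Classical NRF2 targets showed smaller differences. NQO1 stood at 488 and 526 CPM in H358 and 633 and 663 CPM in H1651, a log2 difference of -0.35 ± 0.1 (SE, adjusted p 0.0165); the call was lost without H358 replicate 1 (adjusted p 0.143), without H358 replicate 2 (adjusted p 0.059), under upper-quartile scaling (adjusted p 0.0719) and with the H1651 libraries of the doxycycline experiment (log2 difference 0.12, adjusted p 0.302). KEAP1, the inhibitor of NRF2, stood at 44 and 47.9 CPM in H358 and 59.7 and 70.7 CPM in H1651 (log2 difference -0.5 ± 0.12 (SE, adjusted p 0.00712), adjusted p 0.0587 without H358 replicate 1), and the glutamate-cysteine ligase subunit GCLM at 68.9 against 159 CPM (log2 difference -1.2 ± 0.1 (SE, adjusted p 2.43e-05)). UGT1A6, a glucuronosyltransferase whose exons are shared with other UGT1A genes, had 0 counts in H358 and 2.37 and 1.52 CPM in H1651.

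Sterol genes did not lean to a line, with 4 of 20 tested members higher in H358, 7 higher in H1651 and 9 not called. FASN, fatty acid synthase, stood at 3110 and 2649 CPM in H358 and 342 and 246 CPM in H1651, a log2 difference of 3.29 ± 0.19 (SE, adjusted p 4.86e-06), while the mevalonate pathway genes HMGCS1 (157 against 621 CPM) and IDI1 (60.8 against 282 CPM) were higher in H1651.

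Immune genes varied by class. Interferon-stimulated genes leaned to H358, with 15 of 27 tested members higher there, 4 higher in H1651 and 8 not called, at a median log2 difference of 0.83. Their share of calls was 70.4%, near the 71.2% over all genes. OASL, an antiviral oligoadenylate synthetase-like protein, stood at 32.1 and 38.6 CPM in H358 and 2.08 and 1.49 CPM in H1651 and IFI27 at 7.35 and 8.33 CPM in H358 and 0.246 and 0.0952 CPM in H1651. MX1, an antiviral GTPase, went the other way with 8.32 and 11.7 CPM in H358 and 129 and 95.9 CPM in H1651, a log2 difference of -3.49 ± 0.21 (SE, adjusted p 6.57e-06).

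Antigen presentation genes gave 8 of 18 tested members higher in H358 and 7 higher in H1651. B2M, the light chain of class I molecules, was abundant in both lines at 487 and 427 CPM in H358 and 422 and 361 CPM in H1651. PSMB9, an immunoproteasome subunit, was higher in H1651 (11.1 against 34.9 CPM, log2 difference -1.66 ± 0.15 (SE, adjusted p 5.20e-05)). Class II genes were low throughout, with CD74 at 0.34 and 0.279 CPM in H358 and 0.0224 and 0.0634 CPM in H1651 (called, but with an adjusted p of 0.0719 without H1651 replicate 1 and 0.0828 in DESeq2) and HLA-DQB1 at 4.75 and 4.68 CPM in H358 and 0.537 and 0.19 CPM in H1651. HLA-DRB1 went the other way at 0.800 and 0.613 CPM in H358 and 2.95 and 1.81 CPM in H1651 (log2 difference -1.75 ± 0.36 (SE, adjusted p 0.0031)). Counts of HLA genes depend on how well each line's alleles match the reference.

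Chemokine and cytokine genes were higher in H1651 for 13 of 20 tested members, against 6 higher in H358, at a median log2 difference of -1.74. CXCL5, which attracts neutrophils, had 0 counts in H358 and 153 and 35.2 CPM in H1651, at least 1203-fold higher, or at least 451-fold without H1651 replicate 1 and 1955-fold without replicate 2. CCL2, which attracts monocytes, had 0 counts in H358 and 24 and 22.8 CPM in H1651, at least 299-fold higher. CXCL8, a second neutrophil attractant, was higher in H358 instead (34 and 46.1 CPM in H358 and 3.47 and 7.33 CPM in H1651, log2 difference 2.91 ± 0.33 (SE, adjusted p 1.32e-04)), as was the cytokine LIF (64.5 and 49.6 CPM in H358 and 0.895 and 1.43 CPM in H1651).

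WNT and YAP response genes were higher in H1651 for 14 of 18 tested members, against 3 in H358 and 1 not called, at a median log2 difference of -1.7. The YAP target ANKRD1 stood at 0.194 and 0.279 CPM in H358 and 108 and 159 CPM in H1651, a log2 difference of -9.14 ± 0.31 (SE, adjusted p 5.38e-07), and CCN2 at 17.4 and 7.94 CPM in H358 and 97.9 and 132 CPM in H1651. AXIN2, the general WNT target, did not pass the test (2.26 against 3.26 CPM, log2 difference -0.54, adjusted p 0.137). Its log2 difference was -0.83 without H1651 replicate 2 and -0.19 without H1651 replicate 1. AXIN2 was called with the H1651 libraries of the doxycycline experiment (-1.26, adjusted p 3.82e-04). NKD1, another inhibitor that WNT induces, had 0 counts in H358 and 1.3 and 1.08 CPM in H1651.

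Neuroendocrine genes were partly present in H1651. Of 10 tested, 8 were higher in H1651 and 2 were not called, at a median log2 difference of -4.63 (-3.24 with genes at their bound). DDC, aromatic amino acid decarboxylase, stood at 0.097 and 0.0836 CPM in H358 and 79 and 55 CPM in H1651, and the glycoprotein hormone subunit gene CGA had 0 counts in H358 and 13.8 and 23.8 CPM in H1651. The adhesion molecule NCAM1 stood at 0.097 and 0.0836 CPM in H358 and 4.75 and 3.52 CPM in H1651. INSM1, a defining neuroendocrine factor, stayed below 1 CPM in all 4 libraries, and SYP, synaptophysin, did not pass the test (0.844 against 1.43 CPM, adjusted p 0.0665).

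Across all genes the widest differences, taken as the 10 called genes furthest apart in each direction with at least 10 CPM in the higher line and no overlap, included basement membrane and surface genes. LAMA1, the laminin alpha 1 chain, had 0 counts in H358 and 417 and 498 CPM in H1651, at least 5853-fold higher. NID1, nidogen 1, which links laminin to collagen IV, had 0 counts in H358 and 352 and 454 CPM in H1651, at least 5160-fold higher. Also at 0 counts in H358 were SLC12A3, the thiazide-sensitive sodium chloride cotransporter, at 262 and 425 CPM in H1651, and PIEZO2, a mechanosensitive channel, at 255 and 192 CPM. HAVCR1, known as KIM-1 in kidney, had 0 counts in H358 and 130.3 and 100.2 CPM in H1651.

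In the other direction KLK6, a secreted kallikrein protease, stood at 247 and 190.1 CPM in H358 and had 0 counts in H1651, at least 2693-fold higher. SNHG14, a long non-coding RNA of the imprinted SNRPN region, stood at 314 and 298 CPM in H358 and had 0 counts in H1651; it overlaps UBE3A in antisense, so its counts depend on the strand setting. EVPL, envoplakin of the cornified envelope, stood at 252 and 225 CPM in H358 and had 2 counts in H1651. Outside that rule and chosen after their values were seen, the placental alkaline phosphatase genes ALPG and ALPP stood at 0.194 and 0.418 CPM in H358 and 4001 and 3417 CPM in H1651 and at 1.29 and 1.78 CPM in H358 and 853 and 869.9 CPM in H1651; they are close copies whose reads may be shared. GATA3, a factor of luminal epithelium that was also chosen after its values were seen, had 0 counts in H358 and 88.8 and 84.1 CPM in H1651.

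Genes that differed with doxycycline in H1651 cells carrying the HNF4α construct were set against the difference between the lines; a response to doxycycline itself cannot be told apart in those libraries. In the doxycycline experiment, whose libraries are not part of the comparison, 180 genes were higher with the induced construct, and 152 of them could be tested between the lines. Of those, 93 were higher in H1651, 36 were higher in H358 and 23 were not called, at a median log2 difference of -1.22. Of the genes lowered by doxycycline, 67 could be tested, and 47 were higher in H1651, 12 were higher in H358 and 8 were not called, at a median of -2.5. Over all genes tested between the lines, 36.6% were higher in H1651 and 34.6% were higher in H358. Both lists were defined in H1651 libraries only, so their genes had to be expressed in H1651, which by itself favours a lean to H1651. For that reason no conclusion on the response is drawn from these counts. Among the raised genes HNF4A, USH1C and VIL1 were higher in H1651 as given above, and MTTP was higher in H358.

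Most large differences between the lines appeared again in trametinib-treated cells. Under 20 nM trametinib 15516 of 21188 genes tested were called (73.2%), 7632 higher in H358 (36%) and 7884 higher in H1651 (37.2%). Of the 5312 genes with a called 4-fold difference in vehicle that were tested in both, 4921 (92.6%) were called in the same direction under trametinib and 24 in the opposite one. Over the 19820 genes tested in both conditions, 11462 genes were called in the same direction in both conditions, which is 81.2% of the vehicle calls and 78.6% of the trametinib calls among those genes, and 429 were called in opposite directions.

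The drug changed the difference itself at 4087 genes by a test of interaction (19.3% of 21188), 1998 of them with a more positive and 2089 with a more negative difference between the lines (9.43% and 9.86%). With a replicate block within line it was 8472; libraries of the same number deviated together within a line (correlation across genes of the replicate differences in vehicle and trametinib 0.432 in H358 and 0.76 in H1651), though the labels do not say that the numbers mark a shared culture or day. Without the block, that count fell to 2588 without H358 vehicle replicate 1, 2177 without H358 vehicle replicate 2, 2354 without H358 trametinib replicate 1 and 2638 without H1651 trametinib replicate 2. All 22 proliferation genes were called with a negative interaction, and all 22 were called so with any 1 of the 8 libraries left out. Their summed level in H358 went from 4891 and 5772 CPM in vehicle to 997 and 1533 CPM in trametinib, and in H1651 from 4920 and 5215 CPM to 4785 and 5081 CPM, with CPM scaled over the 8 libraries here and for the next genes. The likeness of the lines in these genes was therefore seen in vehicle and not in trametinib, where the median log2 difference was -2.25. ERK output genes had 11 of 20 negative calls and 1 positive call, with 7 negative calls without H358 trametinib replicate 1.

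FOXA2 stood at 79.3 and 78.6 CPM in vehicle and 3.91 and 6.56 CPM in trametinib in H358, and at 3.96 and 2.23 CPM and 5.59 and 3.9 CPM in H1651. The trametinib libraries of the lines overlapped, which the vehicle libraries did not, with an interaction of -4.53 ± 0.44 (SE, log2, adjusted p 6.09e-04). DUSP6 went from 151 and 168 to 0.637 and 1.16 CPM in H358 and from 51.5 and 53.9 to 5.47 and 7.75 CPM in H1651, an interaction of -4.56 ± 0.32 (SE, log2, adjusted p 2.79e-04). Without the block NKX2-1 and CDH1 did not pass the interaction test (adjusted p 0.886 and 0.31), while CDH1 did with it (0.67, adjusted p 1.52e-04). Both remained higher in H358 in each trametinib library.

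**Figure D5:**
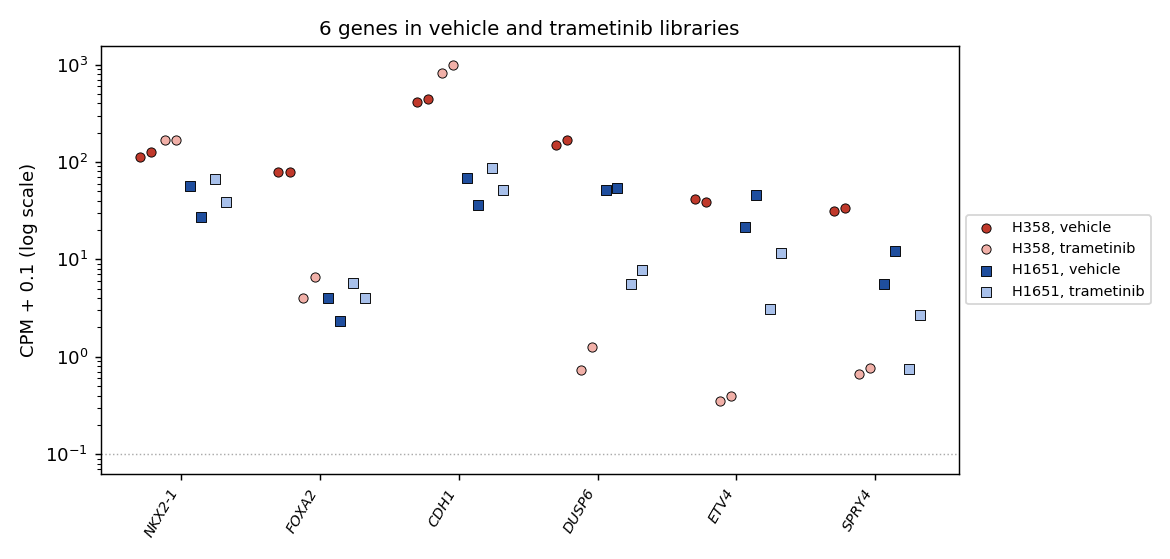
Level of 6 genes in each vehicle and trametinib library of the lines, as CPM + 0.1 on a log axis, with circles for H358, squares for H1651 and pale symbols for trametinib. FOXA2, DUSP6, ETV4 and SPRY4 are lower with trametinib in H358, DUSP6, ETV4 and SPRY4 are lower with it in H1651 by less, and FOXA2 stays low in H1651, while NKX2-1 and CDH1 keep H358 above H1651 in both conditions.

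Another pair of H1651 libraries came from the separate doxycycline experiment, sampled without doxycycline. They held 23996954 and 26148681 counts. EPCAM stood at 1.76 CPM (mean of 2) in those libraries, MUC13 at 568 and HNF4A at 41.2. VIM at 1312 and HOXC13 at 53.6 were lower than in both H1651 vehicle libraries, where HOXC13 stood at 81.7 and 124 CPM. Other genes stood further apart from the H1651 vehicle libraries: HOXA5 was at 47.9 against 10.2 CPM in vehicle, ANKRD1 at 33.7 against 134 CPM, VIL1 at 1.21 against 4.16 CPM and CXCL5 at 222 against 94 CPM. For EGFR the log2 difference was -0.53 with these libraries, against -1.36 with the vehicle ones. Of the 27 list medians, 15 moved by more than the spread between replicates and 3 changed sign. Each median was taken over the members tested in its own fit, and that experiment lists fewer genes, so the members behind a median can differ. The levels given here bear on the H1651 side only. CDKN2A and TP63 were not analysed in that experiment.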

How the data were processed

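Poly(A) RNA from H358 and H1651 was sequenced from both ends with a strand-marking kit, per the labels' protocols. The authors deposited raw read counts per Ensembl gene, in 1 table per line that held the same 26245 genes in the same order, with no normalization. The submitters' processing notes name cutadapt 3.5, STAR 2.7.6a and featureCounts 1.6.3, with hg38 among the builds; the strand setting and annotation are not given in the sources used here. Total counts ran from 32807891 to 45284286 in the vehicle libraries, and no deposited sample column of the human tables was left unused.

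Here the counts were joined by gene ID and fitted in R 4.3.3 with edgeR 4.0.16 (filterByExpr, TMM, quasi-likelihood F-test, Benjamini-Hochberg over all genes tested), with 1 fit for the 4 vehicle libraries and 1 for the 8 vehicle and trametinib libraries. The biological coefficient of variation was 0.135. With 2 libraries per line an exact permutation test cannot pass 0.05, so every p comes from these fits. In counts simulated from the vehicle fit, with 200 of 19202 genes changed, 85% of 2-fold and 100% of 4-fold changes were recovered, and 4.64% of calls were unchanged genes. The changed genes were picked among those with more counts, and the simulated spread followed the fitted trend without a spread of its own per gene. Far fewer genes were changed there than were called between the lines, so these rates need not hold for that comparison. SE is the absolute log2 difference divided by the square root of F.

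The 27 lists (587 genes) and the comparison were chosen with earlier results of these data known; some genes and 1 list are not reported here. The rule for naming genes took each list's core genes, its 4 called members furthest apart (1 CPM or more in the higher line), and the 10 called genes furthest apart in each direction with at least 10 CPM and no overlap; other genes were chosen after their values were seen. A further part of the rule, on runs of neighbouring genes, was not applied, since no human annotation was used here, and no coordinates or sequences are given for the same reason. Alternatives were DESeq2 1.42.0, other scalings and filters, a spread shared by 8 libraries, a replicate block, leaving out each library, and the H1651 libraries without doxycycline.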

Additional observations from a re-analysis of the deposited data

Results flagged for a closer look

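The difference between the lines changed with trametinib at 4087 of 21188 genes tested for an interaction with edgeR (19.3%), and it did so at 4 of the 6 genes whose interaction values are given. The flag in each case was the test of the interaction itself. FOXA2, the endodermal pioneer factor, had an interaction of -4.53 on the log2 scale (adjusted p 6.09e-04), with 79.3 and 78.6 CPM in H358 vehicle and 3.91 and 6.56 CPM in H358 trametinib. DUSP6, the ERK phosphatase, had an interaction of -4.56 (adjusted p 2.79e-04), and its H1651 libraries stood at 51.5 and 53.9 CPM in vehicle and 5.47 and 7.75 CPM in trametinib. ETV4, an ETS factor that ERK induces, had an interaction of -4.97 (adjusted p 0.0092), with 41.6 and 38.5 CPM in H358 vehicle, 0.255 and 0.300 CPM in H358 trametinib, 21.5 and 45.8 CPM in H1651 vehicle and 3.02 and 11.4 CPM in H1651 trametinib, and it was not called without H358 trametinib replicate 1 (adjusted p 0.0575). SPRY4, a feedback inhibitor, had an interaction of -3.25 (adjusted p 0.025), with 0.574 and 0.675 CPM in H358 trametinib and 0.649 and 2.56 CPM in H1651 trametinib. The SPRY4 call was lost without either H358 vehicle replicate (adjusted p 0.0594 and 0.0719), without either H358 trametinib replicate (0.105 and 0.0569) and without H1651 trametinib replicate 2 (0.128). With a replicate block within line all 4 genes were called, with adjusted p of 3.86e-08 for FOXA2, 2.17e-08 for DUSP6, 2.75e-07 for ETV4 and 3.07e-06 for SPRY4. In trametinib, DUSP6 and ETV4 were higher in H1651 in every library.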

How the results depend on the processing

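The vehicle counts of genes called in each direction stayed within 1.5 times of the main count under every alternative run. Upper-quartile scaling shifted the median of all genes from -0.02 to 0.1 and the share of calls higher in H358 from 48.6% to 53.1%, and DESeq2 gave a share of 46.3%. Requiring at least 10 counts in every library, which by construction removes genes that 1 line does not express, left 1938 genes at 4-fold or more, 1013 higher in H358 and 925 higher in H1651. With the H1651 libraries of the doxycycline experiment, whose table lists fewer genes, 1460 genes were at least 4-fold higher in H358. The interaction count ran from 2177 to 3667 with 1 library left out, and it was 8472 with a replicate block within line; the cause was not tested. A lone library was assumed to vary like the other groups. In the vehicle comparison the replicate block gave 14647 calls, against 14138 without it, and 5329 genes at 4-fold or more, 2592 higher in H358 and 2737 higher in H1651. The correlation between the lines of each gene's difference between replicates was 0.0795, so the replicate numbers do not pair the vehicle libraries across the lines, and that block is given here only. Within a line the numbers did go together (0.432 in H358 and 0.76 in H1651, vehicle against trametinib), which is a hint from the data and not from the labels. The block over both lines in trametinib (16428 calls) and the list counts and the lower bounds with 1 library left out were added after seeing the data.

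Some list medians changed sign. The median of growth factor receptors and ligands was 0.51 with at least 10 counts in every library. That of MHC genes was -0.26 under the same filter, -0.0786 and -0.00624 without H358 replicate 1 and 2, at most 0.102 with any 1 library left out, and -0.0942 with the doxycycline experiment's H1651 libraries. That of sterol genes ran from -0.0758 without H1651 replicate 2 to 0.348 without H1651 replicate 1, and was -0.44 with those libraries, where endothelial markers stood at -0.40 and NQO1 at 0.12 (adjusted p 0.302). In all these cases the cause was not tested. A count of 0 allows up to 3 counts per library, so levels under that could not be told from 0 at this depth.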

Other observations

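The following gene families were picked from the table after its values were seen, and their counts are descriptions, read against a background of 34.6% of genes higher in H358 and 36.6% higher in H1651. Collagen chains leaned to H1651, where 26 of 35 tested were higher, against 5 in H358. The basement membrane collagen COL4A1 stood at 0.0243 and 0.0836 CPM in H358 and 134 and 299 CPM in H1651 and COL4A2 at 0 and 0.0557 CPM in H358 and 196 and 393 CPM in H1651, and the fibrillar COL5A1 at 0.0139 against 261 CPM in H358 and H1651. COL8A1, a short-chain collagen, was an exception (74.1 against 0.185 CPM). Of 11 tested laminin chains, 6 were higher in H358, 3 were higher in H1651 and 2 were not called: LAMA3 and LAMB3 were higher in H358 (214 against 11.1 CPM and 355 against 48.5 CPM), LAMA1 was on in H1651 alone of these lines, and LAMB1 did not pass the test (425 against 369.6 CPM). ITGB4, the integrin subunit of hemidesmosomes, stood at 644 and 523 CPM in H358 and 3.38 and 3.01 CPM in H1651, and its partner ITGA6 at 369 and 277 CPM in H358 and 55.1 and 65.6 CPM in H1651. Both integrin genes were higher in H358, but integrin subunits as a family were divided, with 10 of 18 tested higher in H358 and 8 higher in H1651.

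ABC transporters leaned to H1651, with 27 of 40 tested higher there and 6 higher in H358. ABCC2, an export pump of the bile canaliculus, stood at 2.13 and 1.84 CPM in H358 and 275 and 263 CPM in H1651, ABCC3 at 50.4 and 29.3 CPM in H358 and 357 and 285 CPM in H1651 and the breast cancer resistance protein gene ABCG2 at 5.82 and 4.48 CPM in H358 and 55.6 and 75.7 CPM in H1651. Transmembrane serine proteases and their Kunitz-type inhibitors leaned to H358, with 10 of 13 tested higher there and 3 higher in H1651. TMPRSS4 stood at 245 and 210.5 CPM in H358 with 2 counts in H1651, and the inhibitor genes SPINT1 and SPINT2 stood at 313 against 8.0 CPM and 479 against 6.4 CPM. TMPRSS3 had 0 counts in H358 and 9.98 and 10.3 CPM in H1651, and TMPRSS2 was higher in H1651 (1.55 and 1.78 CPM in H358 and 10.9 and 4.19 CPM in H1651). Of the 4 epithelial sodium channel subunits, which such proteases are known to cleave, 1 was higher in H358 and 3 were higher in H1651. SCNN1A was the one higher in H358 (228 and 237 CPM in H358 and 28.3 and 6.28 CPM in H1651), SCNN1G was higher in H1651 (0 and 0.167 CPM in H358 and 26.3 and 10.4 CPM in H1651), SCNN1B had 0 counts in H358 and 47.6 and 22.6 CPM in H1651, and SCNN1D stood at 0.97 and 0.557 CPM in H358 and 2.6 and 1.4 CPM in H1651.

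Clustered protocadherins, which encode cell surface identity in neurons, were higher in H358 for 35 of 50 tested and higher in H1651 for 6. PCDHGA12 stood at 30.1 and 31 CPM in H358 and 0.224 and 0.0317 CPM in H1651 and PCDHGB5 at 18.2 and 20.2 CPM in H358 and 0.313 and 0 CPM in H1651, while PCDHB5 went the other way (0.267 and 0.39 CPM in H358 and 19 and 18.2 CPM in H1651). Genes of the gamma cluster share exons, and the split of reads between them is uncertain. Of the 5 tested metallothionein genes, which bind zinc and copper, 4 were higher in H358, with MT1E at 114 and 139 CPM in H358 and 0.313 and 0.0634 CPM in H1651 and MT2A at 579 and 477 CPM in H358 and 56.2 and 65.9 CPM in H1651, while MT1A was higher in H1651. Of 9 tested genes of the imprinted SNRPN region and its flank, 5 were higher in H358 and 4 were higher in H1651. SNRPN and SNHG14 were near silent in H1651: SNRPN stood at 103 and 106 CPM in H358 with 1 count in H1651. Their neighbours NIPA1 and NIPA2 were higher in H1651 (8.21 against 255 CPM and 37 against 159 CPM).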
